A study of Rattus norvegicus with 6 samples.

Results

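The effect of N-acetylcysteine (NAC) in carcinogen-treated rat liver was measured by comparing the 2 HCC/NAC libraries with the 2 HCC libraries, 4 of the 6 libraries in all, chosen by their titles. Male Fischer-344 rats of both groups received diethylnitrosamine (DEN), a liver carcinogen that alkylates DNA after activation by cytochrome P450 enzymes, at 50 mg/kg weekly by intraperitoneal injection. They then received the aromatic amine 2-acetylaminofluorene (2-AAF) at 25 mg/kg by mouth. Injury was induced for 16 weeks, and the HCC/NAC rats were also given NAC at 300 mg/kg by mouth every day. Control rats, whose 2 libraries entered no test, received oral carboxymethyl cellulose alone. RNA from 5 animals of a group was pooled to make its 2 libraries, so no value belongs to a single animal. The labels do not say whether the libraries of a group hold different animals, and the p-values reflect no more than the scatter of these libraries, possibly a technical one. The tissue is labelled as liver and the cell type as total. Fewer cells of a type and less RNA per cell cannot be told apart in such samples.

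NAC is deacetylated in cells to cysteine, the amino acid that usually limits the synthesis of glutathione. Glutathione removes peroxides and is conjugated to reactive electrophiles in hepatocytes. The transcription factor NRF2, which KEAP1 holds in check until oxidants or electrophiles modify KEAP1, drives many of the enzymes of glutathione synthesis and conjugation, and the series title names this pathway as its question.

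The count tables list 43360 Ensembl rat gene IDs without symbols, and 0 of them could be paired with a symbol from the reference table. The values below are therefore those of gene IDs, described by their change and abundance. The mRNAs encoded in mitochondrial DNA, the NRF2 pathway and the markers of liver and other cell types were not analysed as such here. Their IDs may be among those below, including the most abundant ones, but could not be told apart. The promoters of the changed genes were not analysed, and the tissue label was not checked against markers. The 4 libraries held between 33917707 and 37717373 counts, and 16352 IDs passed the filter on low counts.

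NAC-treated livers differed from livers given the carcinogens alone in 5016 IDs, 30.7% of those tested. Of these, 2385 were higher in HCC/NAC livers (14.6% of IDs tested) and 2631 were lower (16.1%). The calls rest on the quasi-likelihood test of edgeR, with p adjusted by Benjamini-Hochberg and a threshold of 0.05. Levels are in CPM, read counts divided by the library total after scaling by the trimmed mean of M values (TMM). The median risen ID was 1.69-fold higher, with a log2 fold change of 0.76 and a median standard error of 0.13. The median fallen ID was 1.68-fold lower, with a log2 fold change of -0.75 and the same median standard error. Changes reached 1.5-fold in 3328 IDs and 2-fold in 1613 IDs (9.86% of IDs tested), of which 789 were higher and 824 lower. At 4-fold there were 191 higher and 224 lower IDs, with IDs at 0 in both libraries of a group set at a limit of 3 counts per library. The libraries of the groups did not overlap for 66.8% of IDs tested, with both HCC/NAC libraries above both HCC libraries in 31.9% and below them in 34.8%, so separation of the values alone was common.

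**Figure D1:**
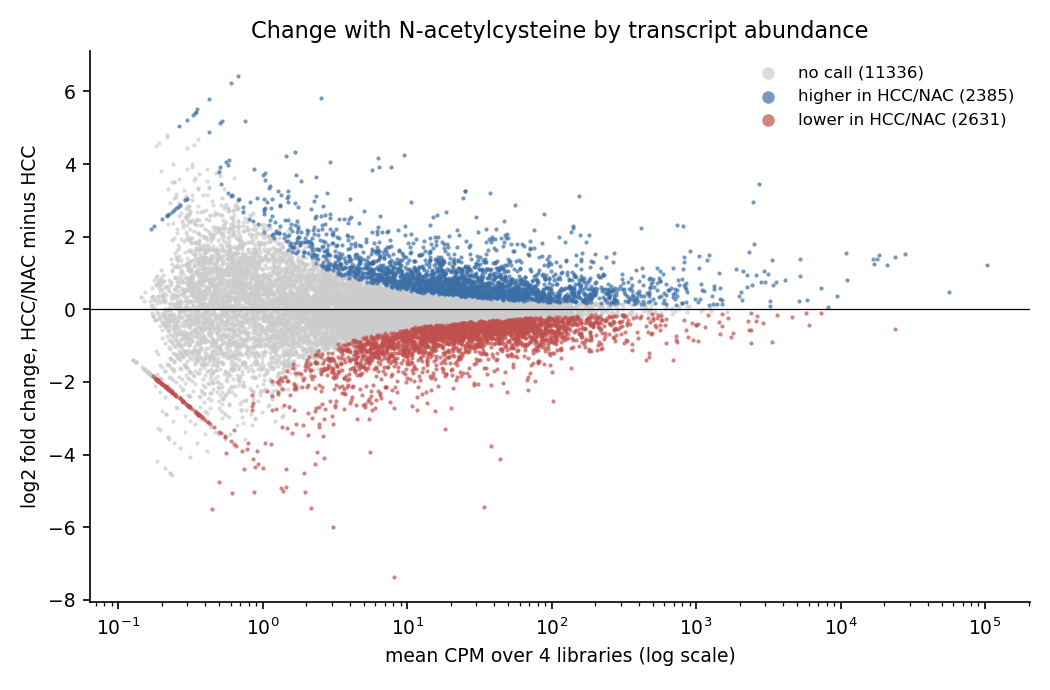
Log2 fold change of HCC/NAC against HCC livers (vertical axis) against mean CPM over the 4 libraries (horizontal log axis), 1 point per gene ID, with IDs at 0 in both libraries of a group drawn at the limit of 3 counts per library. The 2385 higher and 2631 lower IDs lie on both sides of 0 at most levels, and on this TMM scale no called fall below -1 lies at 1000 CPM or more (7 do with library totals alone).

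The number of calls depended on the scaling and on each library. With library totals alone and no TMM, 930 IDs were higher and 6209 lower, and the median log2 fold change of all IDs moved from -0.01 to -0.43. Without HCC replicate 1 there were 3026 calls and without HCC replicate 2 there were 3230, against 8222 without HCC/NAC replicate 1 and 7962 without HCC/NAC replicate 2. In these fits the remaining library of a group was assumed to vary like the other group.

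The numbers of rises and falls differed between abundance classes, a pattern described here without a test. Among the 94 IDs with a mean of at least 1000 CPM, 61 rose with NAC and 27 fell, and 6 had no call. Of these IDs 23 rose at least 2-fold and 0 fell at least 2-fold, whereas with library totals alone and no TMM 10 rose and 7 fell at least 2-fold. The median log2 fold change of the class was 0.32, beside -0.01 over all IDs tested. At 100 to 1000 CPM, 346 of 908 IDs rose and 303 fell. At 10 to 100 CPM the falls were more numerous, with 1356 rises and 1600 falls among 6590 IDs. At 1 to 10 CPM, 577 of 5897 IDs rose and 595 fell, and below 1 CPM 45 of 2863 rose and 106 fell. Of the tested IDs at 0 in both HCC/NAC libraries, with a median mean of 0.22 CPM, 96 were called lower. Of those at 0 in both HCC libraries, with a median mean of 0.24 CPM, 15 were called higher. These IDs passed the filter through the other group alone, which fixed their direction, so the excess of falls below 1 CPM is not a free observation. With library totals alone, 132 rose and 620 fell at 100 to 1000 CPM, 464 rose and 3800 fell at 10 to 100 CPM, 257 rose and 1564 fell at 1 to 10 CPM, and 35 rose and 177 fell below 1 CPM. Single libraries also moved the counts of the lower classes. At 1 to 10 CPM there were 251 rises and 273 falls without HCC replicate 1, 253 and 327 without HCC replicate 2, 1172 and 1468 without HCC/NAC replicate 1, and 1111 and 1394 without HCC/NAC replicate 2. Below 1 CPM the same fits gave 1 rise and 2 falls, 5 and 5, 183 and 409, and 198 and 436. At 10 to 100 CPM they gave 795 and 1067, 844 and 1123, 1729 and 2283, and 1650 and 2199.

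**Figure D2:**
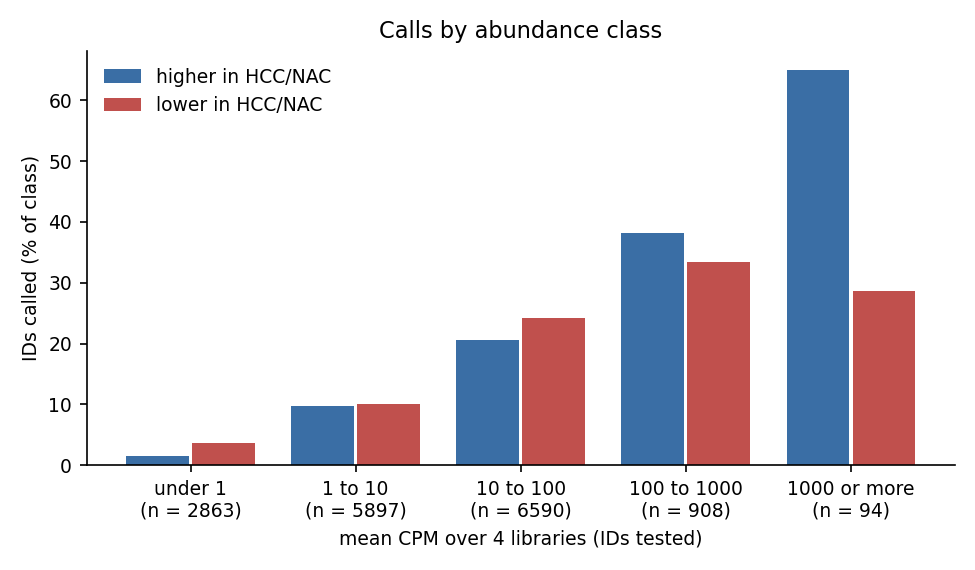
Share of the IDs in each abundance class that were called higher (blue) or lower (red) in HCC/NAC than in HCC livers; classes are by mean CPM over the 4 libraries, with the number of IDs tested under each pair of bars. Rises outnumber falls in the most abundant class, 61 against 27, and falls outnumber rises at 10 to 100 CPM, 1600 against 1356. The bars include IDs at 0 in both libraries of a group, 96 lower and 15 higher, whose direction the filter fixed.

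In the most abundant class rises outnumbered falls under RLE scaling (62 against 27) and upper-quartile scaling (62 against 26), but not with library totals alone, where 42 rose and 48 fell. Even on that scale its median log2 fold change of -0.10 was above that of all IDs, -0.43. The 13 most abundant IDs were left out of the library totals as an alternative chosen after the data were seen. With TMM this left 2392 higher and 2637 lower IDs, and 50 of the other 81 IDs of at least 1000 CPM rose and 26 fell. Without these 13 IDs and without TMM, 1823 IDs were higher and 3503 lower.

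The spread between libraries of a group and the smallest called change both differed between abundance classes. The part of the spread in the calls was not tested. At 100 to 1000 CPM the median gap between replicates on the log2(CPM + 0.5) scale was 0.05 for HCC and 0.07 for HCC/NAC, and the median gap between the group means was 0.35. At 1 to 10 CPM these gaps were 0.19, 0.39 and 0.46. The replicate gaps compare single libraries and the group gap compares means of 2 libraries, so their sizes are not like measures. The smallest called change on the log2 scale was 0.13 at 100 to 1000 CPM, 0.55 at 1 to 10 CPM and 2.34 below 1 CPM. Smaller changes of weakly expressed IDs received no call.

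Fewer IDs held 50% of the counts in NAC-treated livers. The most abundant IDs needed to reach 50% of all counts numbered 114 and 110 in HCC replicates 1 and 2, and 32 and 31 in HCC/NAC replicates 1 and 2. Control livers needed 84 IDs in both libraries. For 90% of the counts, 4054 and 4003 IDs were needed in HCC, 3010 and 2980 in HCC/NAC and 3106 and 3125 in control libraries, so the HCC/NAC libraries lay next to control at this level. In the HCC libraries 24.9% and 25.1% of counts fell to the 10 leading IDs, and 37.5% and 37.8% did so in the HCC/NAC libraries. The groups did not overlap, and the gap of 12.6 percentage points exceeded the SD between replicates, 0.20 in HCC and 0.22 in HCC/NAC livers (n = 2 each). An exact two-sided permutation test gave p = 0.333, the smallest p that 2 libraries against 2 allow. The lower ranks held less with NAC: IDs ranked 101 to 1000 held 23.7% ± 0.0039 (SD, n = 2) of counts in HCC livers and, with NAC, 19.03% ± 0.11 (SD, n = 2), and IDs ranked beyond 1000 held 27.6% ± 0.24 (SD, n = 2) and 20.2% ± 0.13 (SD, n = 2). The share of ranks 11 to 100 moved little, from 23.7% ± 0.046 to 23.2% ± 0.021 (SD, n = 2 each). Shares within a library add up to a fixed total. The loss in the other ranks together therefore follows from the gain of the 10 leading IDs.

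These 10 leading IDs comprised 9 that rose with NAC and 1 that fell. The most abundant ID stood at 61184 and 63131 CPM in the HCC libraries and at 143034 and 145403 CPM in the HCC/NAC libraries, beside 45885 and 46689 CPM in the control libraries. Both HCC/NAC libraries were thus above the other 4, and the log2 fold change against HCC was 1.21 ± 0.015 (SE; adjusted p = 2.53e-10, edgeR). The third most abundant ID rose from 14195 and 14591 CPM to 41123 and 41036 CPM, with control libraries at 12459 and 12637 CPM. The seventh rose from 9766 and 9760 CPM to 27372 and 27340 CPM, and the controls held 10116 and 10246 CPM. For these 3 IDs both HCC/NAC libraries lay above all HCC and control libraries. The HCC libraries lay above control for the first and the third and below control for the seventh. The sixth held 12656 ± 103 CPM in HCC, 29254 ± 237 CPM in HCC/NAC and 8640 ± 14 CPM in control livers, and the eighth 9885 ± 232, 26035 ± 1108 and 7403 ± 35 CPM (SD, n = 2 each). The IDs ranked 1, 3 and 5 to 10 rose by 1.21 to 1.51 on the log2 scale. With library totals alone and no TMM they rose by 0.79 to 1.09.

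The other two of the 10 took different courses. The second most abundant ID held 45943 and 47415 CPM in HCC, 64836 and 65176 CPM in HCC/NAC and 85531 and 91408 CPM in control livers. Its HCC/NAC libraries lay between the other groups, with a log2 fold change against HCC of 0.48 ± 0.015 (SE; adjusted p = 1.21e-07, edgeR). With library totals alone this change was 0.06 on the log2 scale. The fourth most abundant ID fell from 28408 and 28484 CPM to 19655 and 19186 CPM, below the control libraries at 33094 and 34054 CPM. Its log2 fold change was -0.55 ± 0.015 (SE; adjusted p = 5.57e-08, edgeR), and -0.97 with library totals alone.

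**Figure D3:**
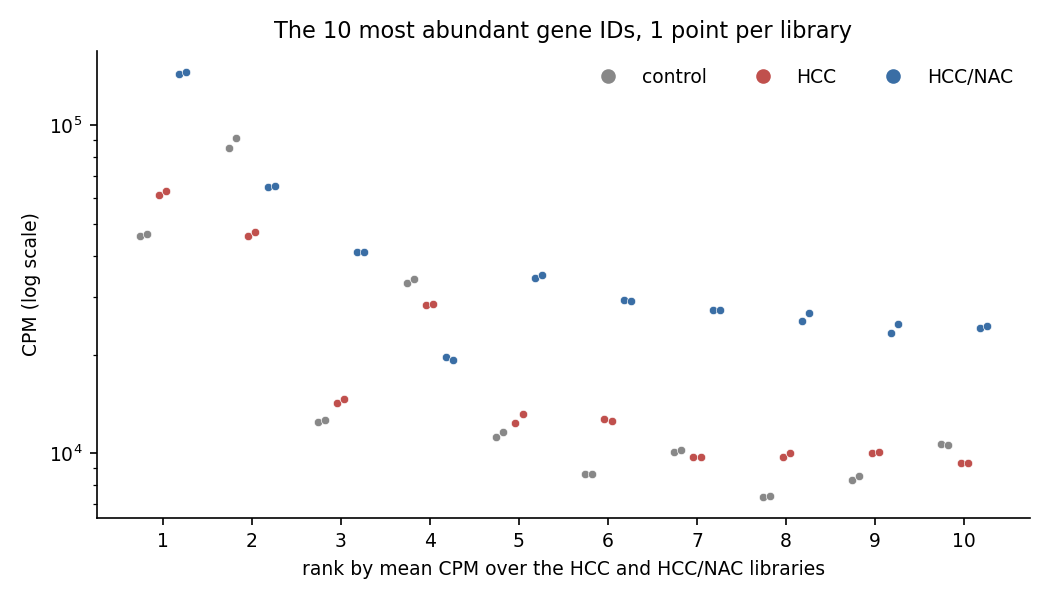
CPM (log axis) of the 10 most abundant gene IDs in each control (grey), HCC (red) and HCC/NAC (blue) library, 1 point per library, in order of mean CPM over the HCC and HCC/NAC libraries. Both HCC/NAC points lie above both HCC points for each ID except the fourth, which fell from 28408 and 28484 CPM to 19655 and 19186 CPM.

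The largest rises among IDs with a mean of at least 5 CPM included weakly and strongly expressed genes. ENSRNOG00000001259 had 58 and 22 counts in HCC replicates 1 and 2 and 484 and 635 counts in HCC/NAC replicates 1 and 2. These counts correspond to 1.32 and 0.56 CPM in HCC and to 15.5 and 20.7 CPM in HCC/NAC livers, and the control libraries held 0.90 and 2.00 CPM. The HCC/NAC libraries thus stood above both other groups, 18.9-fold above HCC (log2 fold change 4.24 ± 0.35 SE; adjusted p = 4.49e-05, edgeR). The HCC libraries differed by more than 2-fold, and the log2 fold change was 4.98 without HCC replicate 1 and 3.75 without HCC replicate 2.

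ENSRNOG00000079712 had 17 and 37 counts in the HCC libraries and 335 and 399 counts in the HCC/NAC libraries. It reached 0.39 and 0.95 CPM in HCC, 10.7 and 13.03 CPM in HCC/NAC and 6.69 and 7.95 CPM in control livers. The rise of 17.9-fold (log2 fold change 4.16 ± 0.39 SE; adjusted p = 8.46e-05, edgeR) placed both HCC/NAC libraries above control. Its log2 fold change was 4.90 without HCC replicate 2 and 3.62 without HCC replicate 1.

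Among called IDs with a mean of at least 5 CPM and no overlap of the groups, the 12 largest rises ranged from 7.79-fold to 18.9-fold. Of the 12 IDs 9 had a mean under 50 CPM. Their HCC means went down to 0.67 CPM, and IDs that low in HCC met the 5 CPM mean through the HCC/NAC libraries. All were picked by their change in these same libraries, so their p-values are no separate support. Over all tested IDs 60 called rises and 60 called falls reached 8-fold, with IDs at 0 in both libraries of a group set at 3 counts per library. By the fitted values without this limit, 72 rises and 135 falls did. The sixth and the twelfth of the 12 largest rises were abundant. The sixth held 459.0 and 457.4 CPM in HCC, 4942 and 5055 CPM in HCC/NAC and 8980 and 9295 CPM in control libraries, a 10.9-fold rise with NAC (log2 fold change 3.45 ± 0.027 SE; adjusted p = 4.96e-11, edgeR). The twelfth held 570.6 and 561.5 CPM in HCC, 4412 and 4406 CPM in HCC/NAC and 30619 and 32914 CPM in control libraries, a 7.79-fold rise (log2 fold change 2.96 ± 0.027 SE; adjusted p = 5.01e-11, edgeR). In both the 3 groups did not overlap, and the HCC/NAC libraries lay between HCC and control. The seventh and eighth differed in this respect, since HCC (4.73 ± 0.89 and 4.76 ± 0.088 CPM; SD, n = 2) and control (7.34 ± 1.3 and 6.27 ± 1.2 CPM) were both low and HCC/NAC reached 45.3 ± 8.4 and 45.1 ± 0.47 CPM.

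By the same rule, the 12 largest falls had HCC means of 9.68 to 83.2 CPM and HCC/NAC means of 0 to 5.30 CPM. Most of them thus met the 5 CPM mean through the HCC libraries. ENSRNOG00000014492 had 618 and 710 counts with the carcinogens alone, 14.1 and 18.2 CPM, and 0 counts in both HCC/NAC and both control libraries. It was at least 166.5-fold lower than in HCC, taking the limit as 3 counts per HCC/NAC library (adjusted p = 5.62e-06, edgeR). This ID passed the filter through the HCC libraries alone, which fixed its direction. Such a limit covers counting error only. Among IDs with 200 to 500 counts in one HCC/NAC library, 0 were at 0 in the other. At 100 to 200 counts 0 were at 0 in replicate 1 and 1 in replicate 2. An ID at 0 in both HCC/NAC libraries cannot enter these counts, so they do not bear on ENSRNOG00000014492.

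ENSRNOG00000020369 fell from 3045 and 2504 counts in the HCC libraries to 37 and 58 counts in the HCC/NAC libraries. On the CPM scale it stood at 69.4 and 64.2 in HCC, 1.18 and 1.90 in HCC/NAC and 0.87 and 0.69 in control libraries. It was 43.4-fold lower with NAC (log2 fold change -5.44 ± 0.18 SE; adjusted p = 2.20e-07, edgeR), and both HCC/NAC libraries lay above both control libraries.

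The other 10 of the 12 largest falls ranged from 6.57-fold to 17.4-fold. The third fell from 80.5 and 85.9 CPM in HCC to 5.12 and 4.41 CPM in HCC/NAC livers, and the control libraries held 0.38 and 2.41 CPM. The fifth and the seventh to eleventh fell below both control libraries in both HCC/NAC libraries. The seventh held 9.68 ± 0.31 CPM in HCC, 1.18 ± 0.13 in HCC/NAC and 8.26 ± 2.8 in control livers (SD, n = 2 each). The eighth held 27.1 ± 2.7, 3.87 ± 0.86 and 20.4 ± 0.085 CPM (SD, n = 2 each). The IDs most changed by NAC thus held control levels on either side of the HCC/NAC level. Control values are given beside the others as a description. No test against control was made, and the HCC libraries would enter both comparisons.

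**Figure D4:**
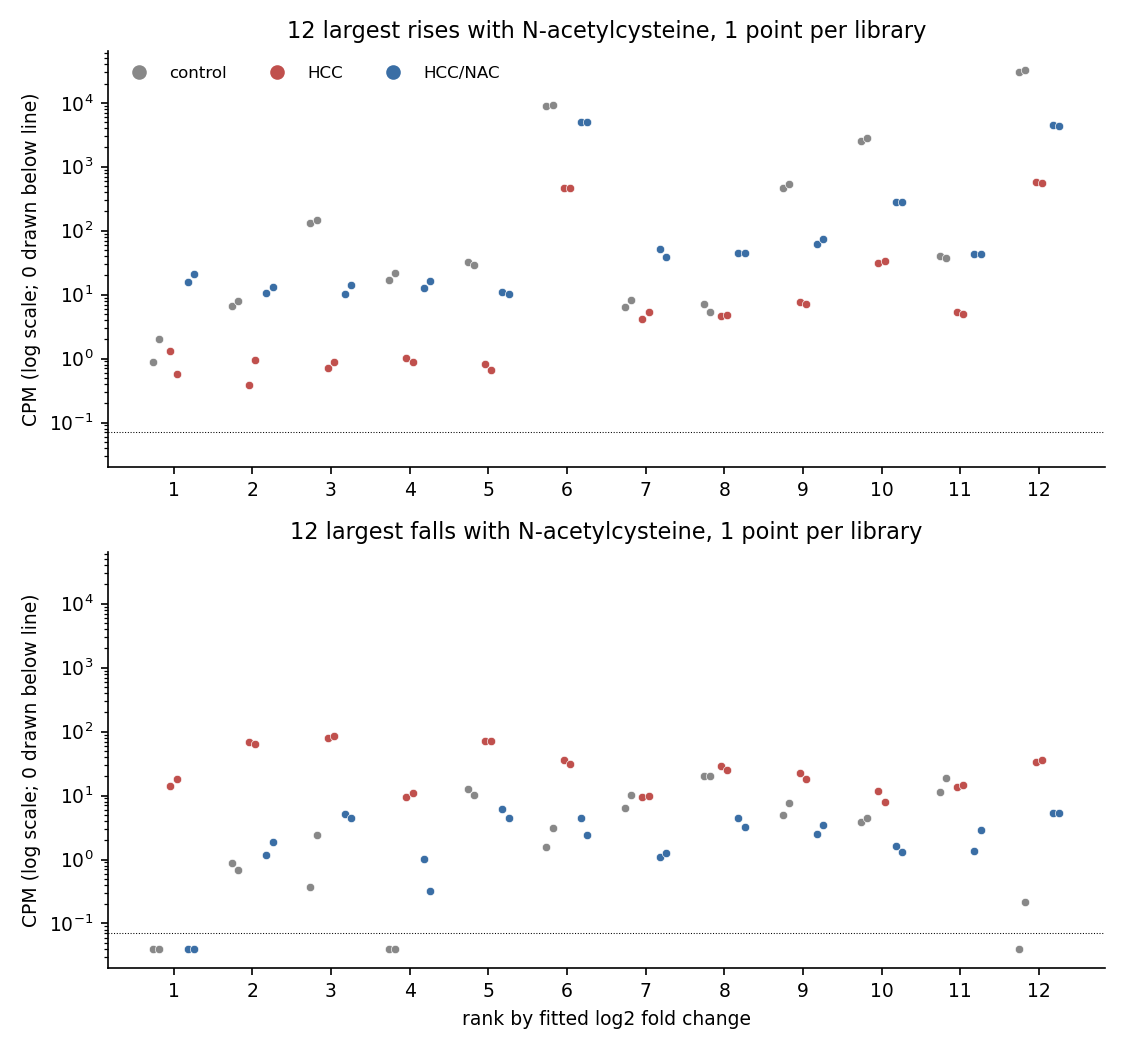
CPM (log axis) in each control (grey), HCC (red) and HCC/NAC (blue) library for the 12 largest rises (upper panel) and 12 largest falls (lower panel) among IDs with a mean of at least 5 CPM; values of 0 are drawn below the dotted line. Control points lie above, between or below the other groups, and the first fall is at 0 in both HCC/NAC and both control libraries.

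Weakly expressed IDs were missing from the HCC/NAC libraries more often than from the HCC libraries. Of IDs with 10 to 19 counts in the other library of the group, 40.5% and 42.1% were at 0 in HCC/NAC replicates 1 and 2 (exact Clopper-Pearson 95% intervals 38.1% to 42.9% and 39.7% to 44.6%). In HCC replicates 1 and 2 the shares were 5.36% and 7.21% (4.26% to 6.65% and 5.93% to 8.68%). Control replicates 1 and 2 lay at 36.7% and 15.7%. At 20 to 49 counts the shares were 13.8% and 11.1% in HCC/NAC and 0.12% and 0.47% in HCC libraries. At 50 to 99 counts the shares were 0.72% and 1.05% in HCC/NAC, and in each HCC library 0 IDs were missing, which allows up to 0.26% and 0.27%. Very low counts were themselves scarce in some libraries: 632 and 708 IDs had 1 to 5 counts in the HCC/NAC libraries, against 2847 and 3364 in HCC, and the control libraries held 336 and 3271. A count of 0 and the limit of 3 counts per library may therefore not mean the same in each library. Among tested IDs 128 were at 0 in both HCC/NAC libraries and 15 in both HCC libraries. These passed the filter through the other group alone, which fixed their direction, and leaving out their calls left 2370 higher and 2535 lower. The part of these missing counts in the calls of weakly expressed IDs was not tested.

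**Figure D5:**
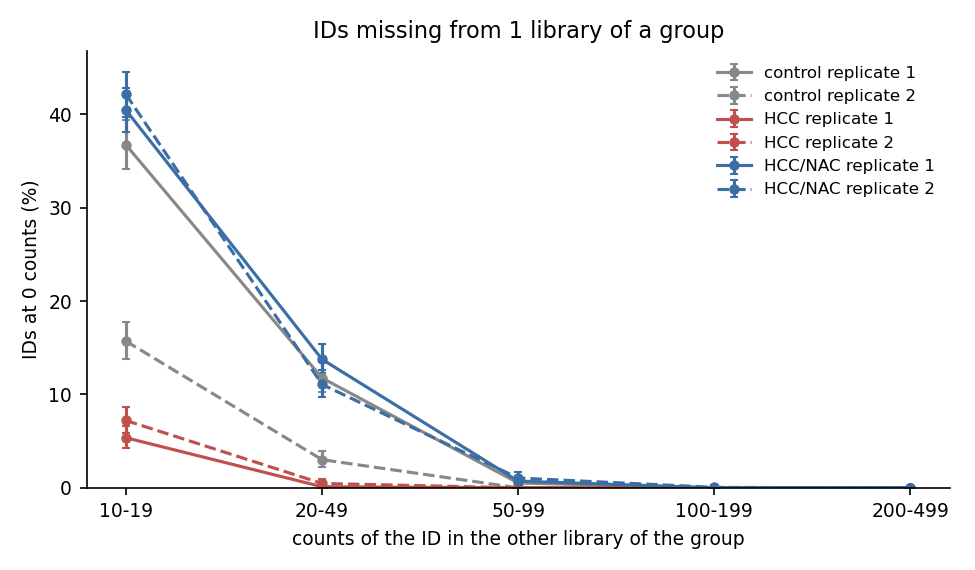
Share of gene IDs at 0 counts in a library (vertical axis, percent) against the counts of the same IDs in the other library of the group (horizontal axis), for each replicate of control (grey), HCC (red) and HCC/NAC (blue), with exact 95% binomial intervals. At 10 to 19 counts the HCC/NAC libraries reach 40.5% and 42.1% and the HCC libraries 5.36% and 7.21%, and the lines meet near 0 from 100 counts on.

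Of the 43360 IDs listed, 20270 were at 0 in all 4 libraries. IDs with at least 20 counts in each HCC library and 0 in each HCC/NAC library numbered 40, against 1 in the reverse direction. At a minimum of 50 counts there were 8 and 0 such IDs. At these levels missing counts were also more frequent in the HCC/NAC libraries, and their TMM factors were lower. The part of either in these numbers was not tested.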

How the data were processed

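Liver poly(A) RNA was measured in 6 libraries, of which 4 were compared. The values deposited by the authors are raw counts per Ensembl gene ID, each from a STAR alignment per the file headers. FastQC, STAR, featureCounts and edgeR were used, per the submitters' processing notes, without versions. The genome build, annotation release and strand setting were not given in the sources used here. How reads common to several genes were treated is not stated, and without molecular identifiers a count is not a molecule.

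The 4 libraries were fitted in R 4.3.3 with edgeR 4.0.16 (filterByExpr, TMM, glmQLFit and glmQLFTest with a mean per group, 2 residual degrees of freedom). TMM factors were 1.16 and 1.15 in HCC and 0.87 and 0.86 in HCC/NAC libraries. Control CPM were scaled against the same reference library. Standard errors were derived from the F statistic. Replicates did not agree within Poisson noise: chi-square divided by its degrees of freedom came to 5.22 for HCC and 12.2 for HCC/NAC.

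The reference table named 47357 genes and held 0 Ensembl rat IDs. The planned gene lists, cell type markers and the fit without the 13 mitochondrially encoded mRNAs were therefore not used here; leaving out the 13 most abundant IDs was added, and says nothing of what these IDs encode. The members and lists were chosen with earlier results of these data known. Named IDs were the 2 largest rises and 2 largest falls with an adjusted p under 0.05, a mean of at least 5 CPM and no overlap of the groups. IDs described by rank come from the 12 largest in each direction and the 10 most abundant.

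Counts were simulated for 16352 IDs with 200 changed, drawn from those with a mean of at least 1 CPM. Each ID was given the same scatter in both groups, and no further zeros were added. The HCC/NAC against HCC test recovered 38.8% of changes of 1.5-fold, 65.7% at 2-fold and 86.4% at 4-fold, with 8 false calls. In the data the HCC/NAC replicates scattered more than the HCC replicates, with more counts of 0, and 5016 IDs were called. These rates therefore do not measure the accuracy of the reported calls. Alternatives were RLE, upper-quartile and no scaling, DESeq2 1.42.0, limma 3.58.1 (voom), other filters, all 6 libraries, a replicate block, a 2-fold threshold and leaving out each library.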

Additional observations from a re-analysis of the deposited data

How the results depend on the processing

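Of 34 alternative counts of higher and lower IDs, 24 lay within 1.5 times of the reported 2385 and 2631. With library totals only and no TMM 930 were higher and 6209 lower, and 79 reported calls took the opposite direction; none did in the other 16 alternatives (0 IDs each). The threshold of at least 2-fold left 789 higher and 824 lower by construction. Leaving out each library in turn gave 1386 to 3676 higher and 1640 to 4546 lower IDs. Falls outnumbered rises in 15 of 17 alternatives, except under the strict filter (2746 higher, 2587 lower) and in the fit limited to a mean CPM of 10 or more (2123 and 2069). The cause of these shifts was not tested. With all 6 libraries in the fit 1899 were higher and 2787 lower, and DESeq2 called 2339 and 2478. All 61 alternative values of the 4 named IDs and all 140 of the 10 most abundant IDs kept their direction and their call. The named IDs were picked for the largest changes in these same libraries. ENSRNOG00000014492, with 15 of the 61 values, had its direction fixed by the filter. The tally of the named IDs is therefore no separate support for their changes. The share gained by the 10 most abundant IDs ranged from 12.5 to 12.8 percentage points. Both groups carry replicate numbers 1 and 2, which the labels do not tie to a common animal or batch, and the replicate differences of HCC and HCC/NAC were uncorrelated across IDs (r = 0.0026). With the replicate number as a block 2558 IDs were higher and 3004 lower. Below 1 CPM 5.27% of IDs were called, and what limits calls there was not tested.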
